A study of Mus musculus with 12 samples.

Results

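The ABCA genes encode large membrane transporters that use ATP to move lipids across or out of membranes. The members described here were listed by gene symbol, with earlier results of these data known: Abca1, Abca2, Abca3, Abca4, Abca5, Abca7, Abca8a, Abca8b and Abca9. They are 9 of the 27179 genes counted in each library. All 9 were found by Entrez ID and all 9 passed the filter on low counts. The question put to them was whether other members were more abundant in retina whose glia lack Abca1.

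RNA came from whole mouse retina in 4 groups of 3 libraries: 12-month KO, 12-month control, 3-month KO and 3-month control. KO stands for the genotype Glia-ABCA1KO, a knockout of ABCA1 restricted to glia in the words of the design text. One protocol text, attached to control and KO samples alike, calls the animals Astro-KO mice. No source used here gives the Cre driver, the strain, the sex or any allele that the controls share. Whether the 3 libraries of a group stem from different animals is not labelled. The p-values therefore describe the spread between these samples alone, part or all of which could be technical. Library totals ran from 29027099 to 30438026 counts. The tissue matched its label: in CPM, a gene's share of the library's counts scaled to a common total, 10 rod markers summed to 48828 to 55166 and 8 Muller glia markers to 3909 to 4197 CPM, with none of either list at 0.

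In most cells ABCA1 hands cholesterol and phospholipid to lipid-free apolipoproteins, the first step in making high-density lipoprotein. Its gene is switched on by the liver X receptors (LXR), which sense oxidised cholesterol. In retina the best known member is ABCA4, a photoreceptor disc protein that clears retinal-lipid adducts and whose loss causes Stargardt disease in humans. Members also differ in where they act: ABCA1 and ABCA7 at the cell surface, ABCA2, ABCA3 and ABCA5 largely in endosomes, lysosomes or related organelles.

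Promoter sequences are shown for Abca1, the deleted gene, and Abca4, the most abundant member. Each is the 250 bases before a RefSeq start of the gene, the one listed first, positions -250 to -1, GRCm38.p6. That start is not the outer end of either gene. The Abca4 stretch lies inside the bounds of its gene, which begin at 122043891. The Abca1 stretch overlaps the bounds of its gene, which end at 53159988. Other starts of these genes were not searched. Capitals mark matches, on either strand, to letters searched: CACGTG (an E-box), TGACCG and TAACC with 4 bases between (the letters of the LXR element known in the Abca1 promoter), TATAAA, and TAATCC, a form bound by the photoreceptor factor CRX.
Abca1, chr4:53159896-53160145, minus strand: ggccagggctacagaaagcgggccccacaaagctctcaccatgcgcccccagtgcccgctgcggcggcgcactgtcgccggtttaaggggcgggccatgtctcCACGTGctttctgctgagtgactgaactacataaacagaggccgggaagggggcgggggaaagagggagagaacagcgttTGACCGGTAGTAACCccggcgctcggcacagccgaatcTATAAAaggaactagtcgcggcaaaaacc
Abca4, chr3:122044210-122044459, plus strand: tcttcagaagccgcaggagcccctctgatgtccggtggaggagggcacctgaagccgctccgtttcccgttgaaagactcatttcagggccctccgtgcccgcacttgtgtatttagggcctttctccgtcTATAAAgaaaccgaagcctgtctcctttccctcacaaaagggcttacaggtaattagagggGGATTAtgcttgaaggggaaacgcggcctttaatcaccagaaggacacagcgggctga

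Abca1 held the E-box at position -147, the LXR element letters at -67 to -53 and TATAAA at -29. Those LXR letters were in 3 of 27025 promoters of the same length (0.0111%), and as they were written from this gene's own element, their presence here was given. The E-box was in 6.05% of promoters and TATAAA in 12.97%. Abca4 held TATAAA at -119 and, on the opposite strand, a match to the CRX letters at -58. Those CRX letters were in 6.38% of promoters. The textbook LXR element, a direct repeat of AGGTCA with 4 bases between, was also in 0.0111% of promoters and in none of the 9 members within this window. These matches are descriptions of letters and were not tested as binding sites.

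Levels of different genes were compared per kilobase of annotated exon. Abca4 stood first in every library, at a mean of 149 CPM per kilobase over the 12 libraries, and made up 56.0% to 62.2% of the summed CPM per kilobase of the 9 members. Abca8a (30.0), Abca2 (28.6) and Abca7 (24.5 CPM per kilobase) followed, and their ranges over libraries overlapped from each to the next. Abca3, best known as the surfactant lipid transporter of lung, had 8.75 CPM per kilobase and overlapped neither neighbour. Abca8b had 4.12, Abca5 3.42 and Abca1 2.80 CPM per kilobase, again with overlap from each to the next. Abca9 was lowest at 0.251 CPM per kilobase, with 42 to 81 counts in a library. With coding length in place of exon length, Abca5 stood above Abca8b and the other 7 kept their places.

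**Figure D1:**
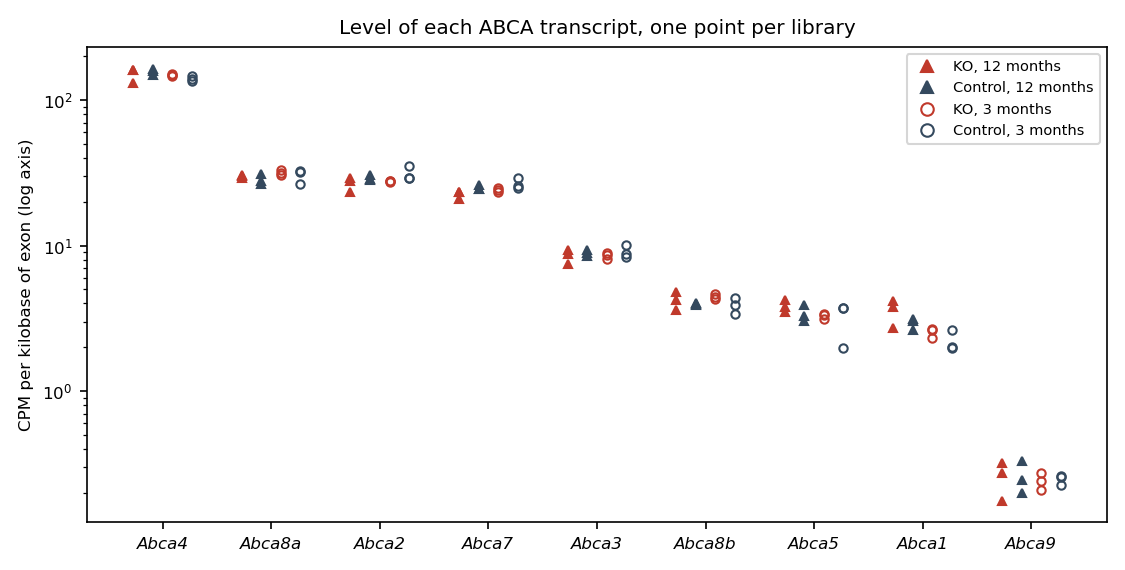
Level of each ABCA transcript in CPM per kilobase of exon (log axis), 1 point per library, with KO in red and control in blue and 12 months as filled triangles and 3 months as open circles. Abca4 lies near 149 CPM per kilobase, well above the rest, and Abca9 near 0.251.

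Abca1, the deleted gene (Entrez 11303, chromosome 4 from 53030789 to 53159988, minus strand, GRCm38), was at least as abundant on average in KO as in control retina. At 12 months the KO libraries had 27.96, 39.1 and 43.0 CPM of it, against 32.5, 27.1 and 31.4 CPM in control libraries. At 3 months the KO libraries had 27.6, 27.3 and 24.1 CPM, against 20.9, 20.5 and 27.05 CPM in control libraries. At both ages 2 of 3 KO libraries lay above all 3 controls and the groups overlapped. Group means at 12 months were 36.7 ± 7.81 CPM in KO and 30.3 ± 2.88 CPM in control retina (SD, n = 3 each), and at 3 months 26.3 ± 1.95 CPM in KO and 22.8 ± 3.69 CPM in control retina.

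The KO to control log2 fold change of Abca1 was 0.24 ± 0.14 (SE) at 12 months (edgeR quasi-likelihood test with Benjamini-Hochberg adjustment over 16475 genes, adjusted p = 0.646) and 0.21 ± 0.14 at 3 months (adjusted p = 0.696). The 95% interval of the 12-month fold ran from 0.966 to 1.44. Averaged over the 2 ages the log2 fold change was 0.23 ± 0.10 (unadjusted p = 0.0333, adjusted p = 0.356). An exact two-sided permutation test of log2(CPM + 0.1), with genotype labels permuted within each age, gave p = 0.065, where the smallest possible is 0.005. In the authors' deposited table, for 12 months, Abca1 had a log2 fold change of 0.16 and an adjusted p of 0.72. As the count covers every exon and the whole tissue, it does not check a deletion confined to glia, and fewer cells of a type and less RNA per cell cannot be told apart.

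The KO value of Abca1 at 12 months turned on single libraries. Replicate 1 of the 12-month KO group stood apart from replicates 2 and 3: its squared differences from them were 21.6 and 24.9 times the counting variance, against 5.16 between the other pair. In it 8 of 9 members were below both other KO libraries, and Abca1 was at 27.96 CPM against their mean of 41.04. Without it the log2 fold change was 0.41 (adjusted p = 0.236), and without KO replicate 3 it was 0.11 (adjusted p = 0.863). Replicate 2 of the 3-month control group also stood apart, at 43.1 and 41.9 times the counting variance against 4.19, with 16 lens markers summing to 4796 CPM. With both libraries left out, a choice made after the data had been seen, the Abca1 log2 fold change was 0.41 at 12 months (edgeR, adjusted p = 0.0149). Averaged over ages it was 0.28 (adjusted p = 0.0307). That choice drops the lowest 12-month KO value of Abca1 and leaves KO replicates 2 and 3. In that setting 421 genes were called at 12 months, against 35 with every library kept. Averaged over ages 220 were called, against 52.

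Microglial marker sums were ordered over the groups as Abca1 was. The 9 markers summed to 62.8 to 68.8 CPM in 12-month KO and 59.3 to 61.3 CPM in 12-month control libraries, and to 49.5 to 50.3 CPM in 3-month KO and 45.1 to 47.5 CPM in 3-month control libraries. Single markers did not all follow the sum. At 12 months Cx3cr1 had 4.69 to 5.06 CPM in KO and 5.13 to 5.82 CPM in control libraries. P2ry12 had 0.875 to 1.44 CPM in 12-month KO and 0.887 to 0.931 CPM in 12-month control libraries (medians 1.21 and 0.898 CPM). Aif1 had 0.269 to 0.371 CPM in 12-month KO and 0.133 to 0.361 CPM in 12-month control libraries (medians 0.309 and 0.233 CPM). Those Aif1 values rest on 4 to 11 counts a library, and both genes overlapped between genotypes. None of the 9 was at 0 throughout a group, and 0 of the 8 tested passed in a KO comparison. Their part in the Abca1 values was not tested.

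**Figure D2:**
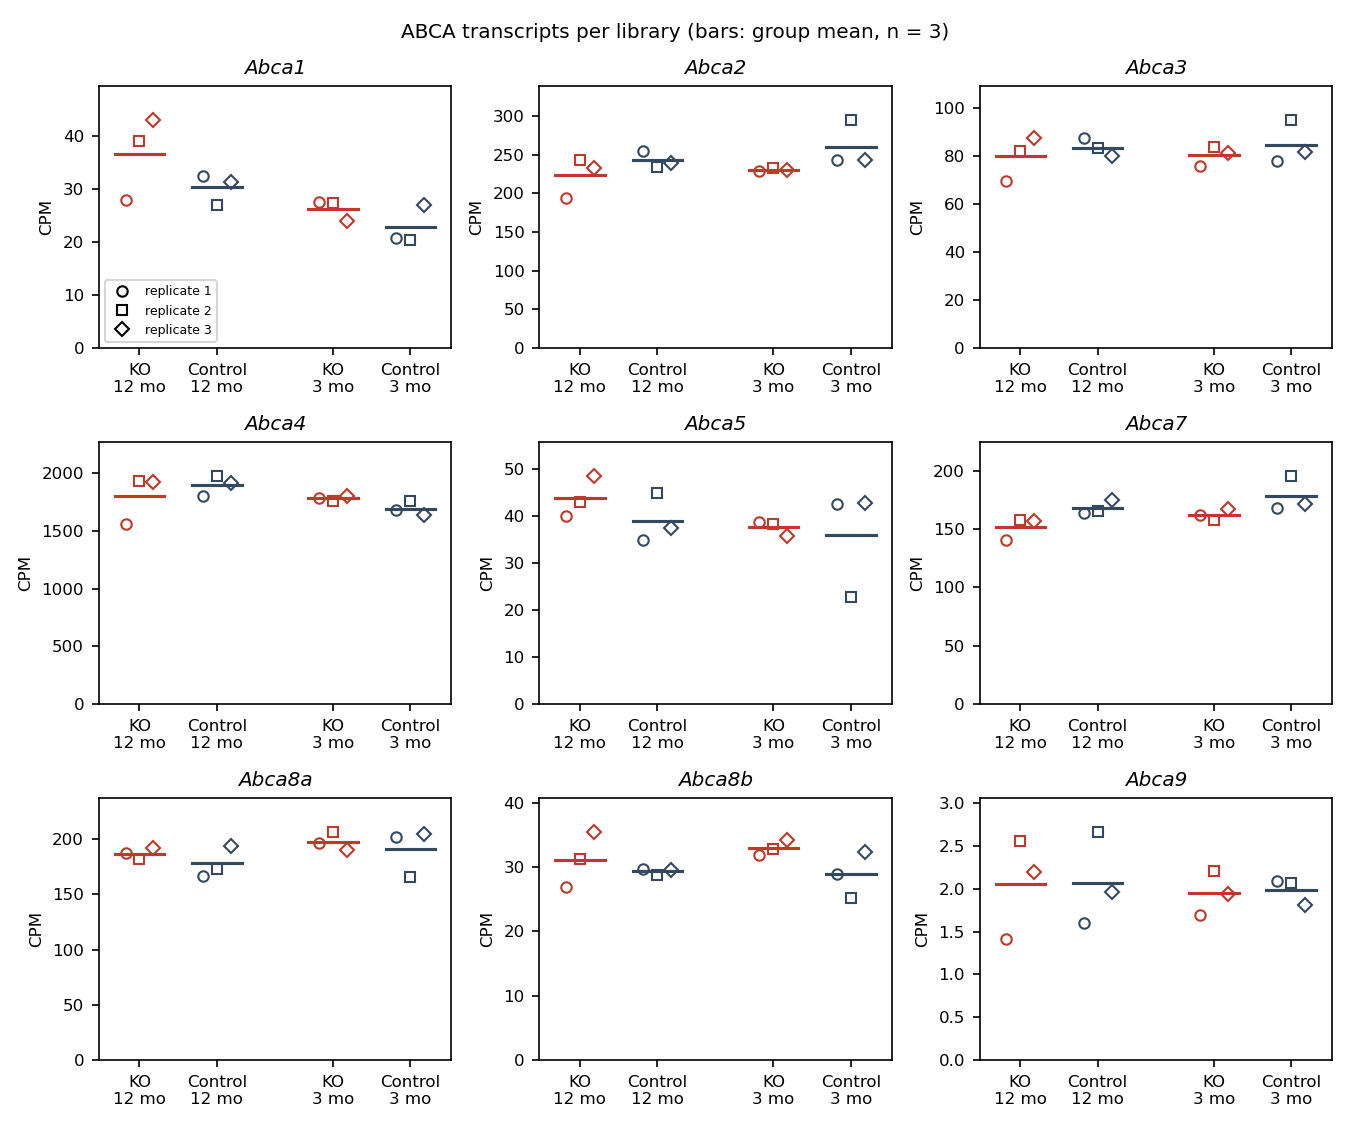
CPM of each ABCA gene in the 12 libraries (vertical axes start at 0 and differ between panels), with KO in red left of control in blue, 12 months left of 3 months, symbols for replicate number and bars for group means (n = 3). Abca1 is at 27.96 to 43.0 CPM in 12-month KO retina and 27.1 to 32.5 CPM in 12-month control retina.

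None of the other 8 members was more abundant in KO retina by the test at either age. Of all 9, 0 passed an adjusted p of 0.05 in KO against control at 12 months, where 0.212% of all genes tested passed, 0 at 3 months (0.225% of all genes) and 0 averaged over the ages (0.316%). DESeq2 and limma-voom also called 0 in each of the 3. At an unadjusted p under 0.05 there were 1 of 9 at 12 months (8.7% of all genes), 0 at 3 months (7.5%) and 3 averaged (12.9%). The median log2 fold change of the 9 was -0.05 at 12 months and 0.06 at 3 months, against -0.0020 and 0.0018 for all genes tested.

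The intervals bound how large a rise in RNA of the whole retina could have gone unseen. They do not bound a rise confined to glia, whose RNA is a part of the total. For the 8 members besides Abca1, the highest upper 95% limit of the KO to control fold was 1.44 at 12 months (Abca5), 1.45 at 3 months (Abca9) and 1.31 averaged over the ages (Abca5). Summed over the 8, the level was 246 ± 23.8 CPM per kilobase in 12-month KO and 257 ± 7.83 in 12-month control retina. At 3 months the sum was 248 ± 1.05 CPM per kilobase in KO and 245 ± 6.77 in control retina (SD, n = 3 in each group). Without Abca4, which dominates the sum, the 7 others totalled 95.8 ± 6.36 CPM per kilobase in 12-month KO against 98.9 ± 2.29 in 12-month control retina, and 99.7 ± 1.23 in 3-month KO against 104 ± 2.08 in 3-month control retina.

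**Figure D3:**
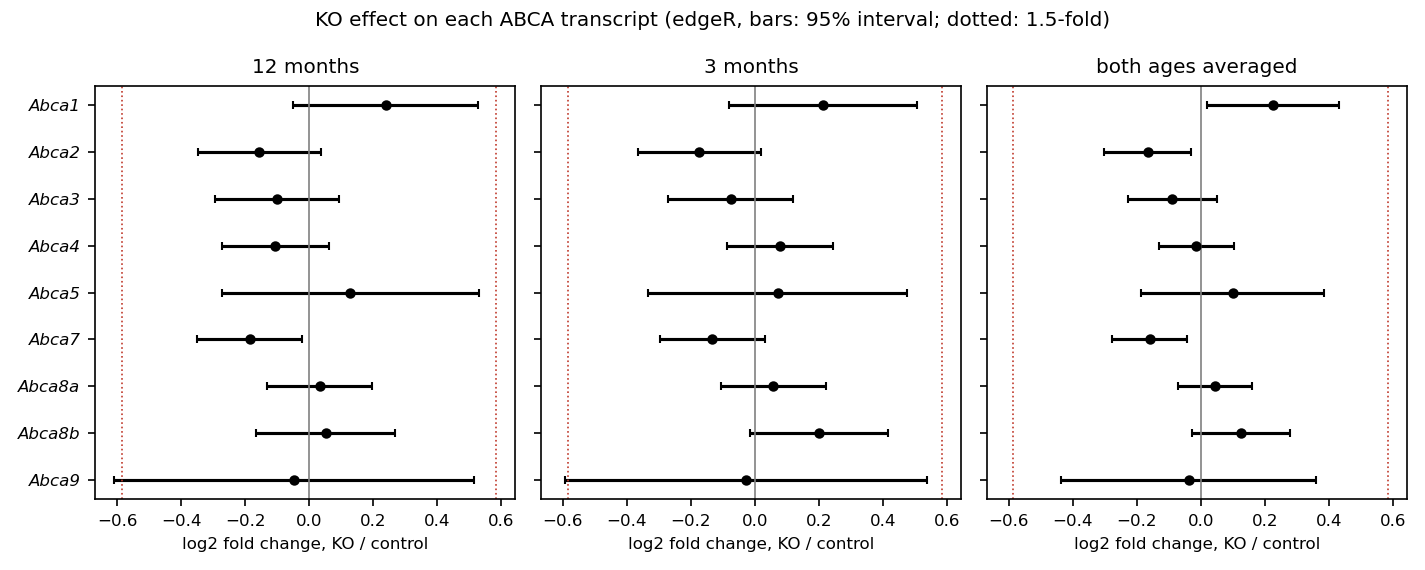
KO to control log2 fold change of each ABCA gene (points, edgeR) with its 95% interval, at 12 months, at 3 months and averaged over both ages; dotted lines mark 1.5-fold. The Abca7 interval at 12 months runs from -0.35 to -0.02, and for the 8 genes besides Abca1 no upper limit exceeds 1.45-fold.

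Abca7, the closest relative of Abca1, exports phospholipid and aids phagocytosis, and is a risk gene for Alzheimer disease in humans. At 12 months it had 141, 158 and 157 CPM in KO libraries, against 164, 166 and 176 CPM in control libraries. The 3-month KO libraries had 162, 158 and 167 CPM, against 168, 196 and 172 CPM in 3-month control libraries. All 3 KO libraries lay below all 3 controls at both ages. For Abca7 the KO to control log2 fold change came to -0.19 ± 0.08 (SE) at 12 months (edgeR, unadjusted p = 0.0291, adjusted p = 0.519), -0.13 ± 0.08 at 3 months (adjusted p = 0.690) and -0.16 ± 0.06 averaged (unadjusted p = 0.00993, adjusted p = 0.277). Labels permuted within each age gave the smallest possible exact two-sided p, 0.005, not adjusted for the 9 members so tested. The full separation of the genotypes at both ages fixes that value, so it restates the separation. In the authors' deposited table Abca7 had a log2 fold change of -0.16 at 12 months and an adjusted p of 0.494.

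Abca2 acts in endosomes and lysosomes and is abundant in myelinating cells of the brain. At 12 months it had 193, 243 and 233 CPM in KO libraries, against 254, 234 and 239 CPM in control libraries. In 3-month retina Abca2 had 229, 232 and 229.8 CPM in KO libraries, against 242, 294 and 244 CPM in control libraries. The groups overlapped at 12 months, while at 3 months every KO library was below every control. Its log2 fold changes were -0.16 ± 0.09 (SE) at 12 months (edgeR, adjusted p = 0.655), -0.17 ± 0.09 at 3 months (adjusted p = 0.676) and -0.17 ± 0.07 averaged (unadjusted p = 0.0196, adjusted p = 0.313). Permutation within ages gave an exact two-sided p of 0.02. The highest control value at 3 months came from replicate 2, the library that stood apart, and without it the 3-month log2 fold change was -0.06 for Abca2 and -0.05 for Abca7. Without 12-month KO replicate 1 the 12-month log2 fold change of Abca2 was -0.058, and without both libraries that stood apart the averaged one was also -0.058. For Abca7 the same 2 values were -0.127 and -0.086.

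Groups that did not overlap were not unusual: at 12 months 1 of 9 members (Abca7) and 16.7% of all genes tested were so placed, and at 3 months 2 of 9 (Abca2 and Abca7) and 16.2%. Bipolar cell markers were also lower in sum in KO retina at 12 months. Their 8 genes summed to 1595 to 1717 CPM in KO and 1844 to 1856 CPM in control libraries, and at 3 months to 1745 to 1798 CPM in KO and 1812 to 1846 CPM in control libraries. None of the 8 was at 0 and none passed the test, and their part in the Abca2 and Abca7 values was not tested. Other lists were lower in 3-month KO retina too. Muller glia markers summed to 3909 to 3959 CPM in KO and 4014 to 4197 CPM in control libraries. Pericyte and smooth muscle markers summed to 63.7 to 68.4 CPM in KO and 69.7 to 85.6 CPM in control libraries. Both of these lists overlapped between genotypes at 12 months, and their part was not tested either. At 3 months all 3 control libraries also held skeletal muscle transcripts, with 11 markers summing to 87.0 to 99.1 CPM against 7.54 to 12.7 CPM in the 3-month KO libraries. Lens markers summed to 10.4 to 12.5 CPM in 3-month KO and 52.0 to 4796 CPM in 3-month control libraries. What these other tissues contributed to the 3-month values of the members was not tested.

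Abca4, the disc-rim transporter of rods and cones, had 1564, 1935 and 1921 CPM in 12-month KO libraries, against 1799.5, 1976 and 1914 CPM in 12-month control libraries. In 3-month retina it had 1789, 1761 and 1805 CPM in KO libraries, against 1685, 1762 and 1635 CPM in control libraries. The KO groups overlapped their controls at both ages, and the lowest of the 12 values was that of the 12-month KO library that stood apart. Abca4 had a log2 fold change of -0.11 ± 0.08 (SE) at 12 months (edgeR, adjusted p = 0.729) and 0.08 ± 0.08 at 3 months (adjusted p = 0.784). Without that library the 12-month value was -0.0068. With some 46383 to 60132 counts in a library, counting error was small for this gene and the spread between libraries set its precision.

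Abca5, a lysosomal member linked to cholesterol handling, had 39.9, 43.0 and 48.5 CPM in 12-month KO libraries, against 34.8, 44.8 and 37.4 CPM in 12-month control libraries. Its 3-month values were 38.8, 38.2 and 35.8 CPM in KO libraries, against 42.6, 22.7 and 42.7 CPM in control libraries. The value of 22.7 CPM was in the control library that stood apart. Its log2 fold change was 0.13 ± 0.19 (SE) at 12 months (edgeR, adjusted p = 0.873) and 0.07 ± 0.19 at 3 months (adjusted p = 0.925), and the 3-month value was -0.16 without that control library. Abca3 ranged from 69.7 to 87.5 CPM in 12-month KO and 79.8 to 87.4 CPM in 12-month control retina, and from 75.8 to 83.7 CPM in 3-month KO and 77.7 to 94.8 CPM in 3-month control retina. The Abca3 log2 fold change was -0.10 ± 0.09 at 12 months (adjusted p = 0.790) and -0.08 ± 0.09 at 3 months (adjusted p = 0.821). Without 12-month KO replicate 1 the 12-month value was -0.0061, and without 3-month control replicate 2 the 3-month value was 0.031. Of the exon bases of Abca3, 9.75% lie opposite a transcript on the other strand, and no source used here says whether the counting used strand.

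Abca5, Abca8a, Abca8b and Abca9 stand together on the minus strand of chromosome 11, between 109932206 and 110337723 (GRCm38), with Abca6 among them. Abca8a had 187, 182 and 192 CPM in 12-month KO libraries, against 167, 173 and 194 CPM in 12-month control libraries. At 3 months it had 197, 206 and 190.3 CPM in KO libraries, against 202, 166 and 205 CPM in control libraries. The groups overlapped at both ages, with log2 fold changes of 0.03 ± 0.08 at 12 months (edgeR, adjusted p = 0.931) and 0.06 ± 0.08 at 3 months (adjusted p = 0.843). Abca8b, whose human counterpart ABCA8 is linked to cholesterol efflux, had 26.9, 31.2 and 35.4 CPM in 12-month KO libraries, against 29.7, 28.8 and 29.5 CPM in 12-month control libraries. At 3 months it had 31.95, 32.8 and 34.2 CPM in KO libraries, against 28.9, 25.2 and 32.4 CPM in control libraries. Its log2 fold change of 0.20 ± 0.10 (SE) at 3 months was the highest of the 8 besides Abca1 (edgeR, adjusted p = 0.676), and at 12 months it was 0.05 ± 0.10 (adjusted p = 0.915). Without 3-month control replicate 2 the 3-month value was 0.13, and without 12-month KO replicate 1 the 12-month value was 0.15. Abca9 had 1.42 to 2.56 CPM in 12-month KO and 1.597 to 2.66 CPM in 12-month control retina, and a 12-month fold between 0.656 and 1.43 (95% interval), the widest of the 9.

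Abca8a and Abca8b were identical over 50 bases or more in short stretches alone, where their reads may be split between them. Near matches were not searched. Of all 50-base windows of their longest transcripts, 1.89% of those in Abca8a and 1.42% of those in Abca8b were the same in both. The longest shared run is 97 bases of coding sequence (Abca8a, chr11:110068847-110069449, minus strand, GRCm38, read across an intron). It is shown because a read lying wholly within it does not tell the pair apart.
Abca8a and Abca8b shared run: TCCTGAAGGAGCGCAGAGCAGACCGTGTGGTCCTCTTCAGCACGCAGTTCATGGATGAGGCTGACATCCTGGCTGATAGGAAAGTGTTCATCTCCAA
Abca3 shared 2.26% of its windows with Abca17, which had at most 9 counts in a library, and Abca9 shared 0.205% with Abca6. Abca1, Abca2, Abca4, Abca5 and Abca7 shared none with another ABCA gene.

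The effect of the knockout did not differ detectably between the ages for any member. In the test of the difference between the KO effects, 12 months minus 3 months, 0 of 9 passed, against 0.127% of all genes, and every adjusted p was 0.999. No member had an unadjusted p under 0.05 there (4.33% of all genes), and DESeq2 and limma-voom called 0. The intervals were wide: for Abca1 the difference was 0.03 on the log2 scale, with 95% limits of -0.39 and 0.44. For Abca4 it was -0.18 ± 0.11 (SE, edgeR, unadjusted p = 0.118), and -0.086 without 12-month KO replicate 1.

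Abca1 stood higher at 12 than at 3 months in both genotypes. Every 12-month library was above every 3-month library within each genotype: 27.96 to 43.0 CPM against 24.1 to 27.6 CPM in KO retina, and 27.1 to 32.5 CPM against 20.5 to 27.05 CPM in control retina. The log2 fold change of 12 over 3 months was 0.46 ± 0.14 (SE) in KO (edgeR, unadjusted p = 0.00364, adjusted p = 0.102) and 0.44 ± 0.14 in control retina (unadjusted p = 0.00575, adjusted p = 0.135). Neither passed, and 0 of 9 members passed in either genotype, against 2.37% of all genes in KO and 2.11% in control retina. Averaged over both genotypes, a contrast added after these values had been seen, Abca1 was 1.37-fold higher at 12 months (95% interval 1.18 to 1.58, adjusted p = 0.0086). It was the 1 member of 9 to pass, where 6.38% of all genes passed. Labels permuted within each genotype gave the smallest possible exact two-sided p, 0.005, not adjusted for the 9 members. The full separation of the ages in both genotypes fixes that value, so it restates the separation. Over the alternatives tried for that contrast, the log2 fold change ran from 0.39 to 0.53 and the adjusted p from 3.6e-06 to 0.0304.

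Within a genotype the age call of Abca1 depended on the tool and on the 12-month KO library that stood apart. DESeq2 called it in KO retina (log2 fold change 0.46, adjusted p = 0.043), as did limma-voom (0.55, adjusted p = 0.00062). Without 12-month KO replicate 1 the values were 0.63 in KO (adjusted p = 0.00446) and 0.44 in control retina (adjusted p = 0.0277). Microglial markers were higher with age as well: 8 of 8 tested had a log2 fold change above 0. In the contrast averaged over genotypes 5 of 8 passed, where 3.62% of all genes tested passed as higher. Pigment epithelium and melanocyte markers summed to 95.2 to 126 CPM at 12 months against 131 to 169 CPM at 3 months in KO, and to 105 to 143 CPM against 129 to 197 CPM in control retina. Pericyte and smooth muscle markers summed to 52.0 to 61.8 CPM at 12 months against 63.7 to 68.4 CPM at 3 months in KO. In control retina they summed to 54.7 to 62.3 CPM against 69.7 to 85.6 CPM. In the averaged contrast 3 of 9 fell, where 2.76% of all genes tested fell. In control retina skeletal muscle markers summed to 6.55 to 8.81 CPM at 12 months against 87.0 to 99.1 CPM at 3 months, with 10 of 11 called. Lens markers there summed to 10.6 to 32.5 CPM against 52.0 to 4796 CPM, with 1 of 16 called. Of all genes tested, 2.11% were called for age in control retina. What these cell types contributed to the Abca1 value was not tested.

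**Figure D4:**
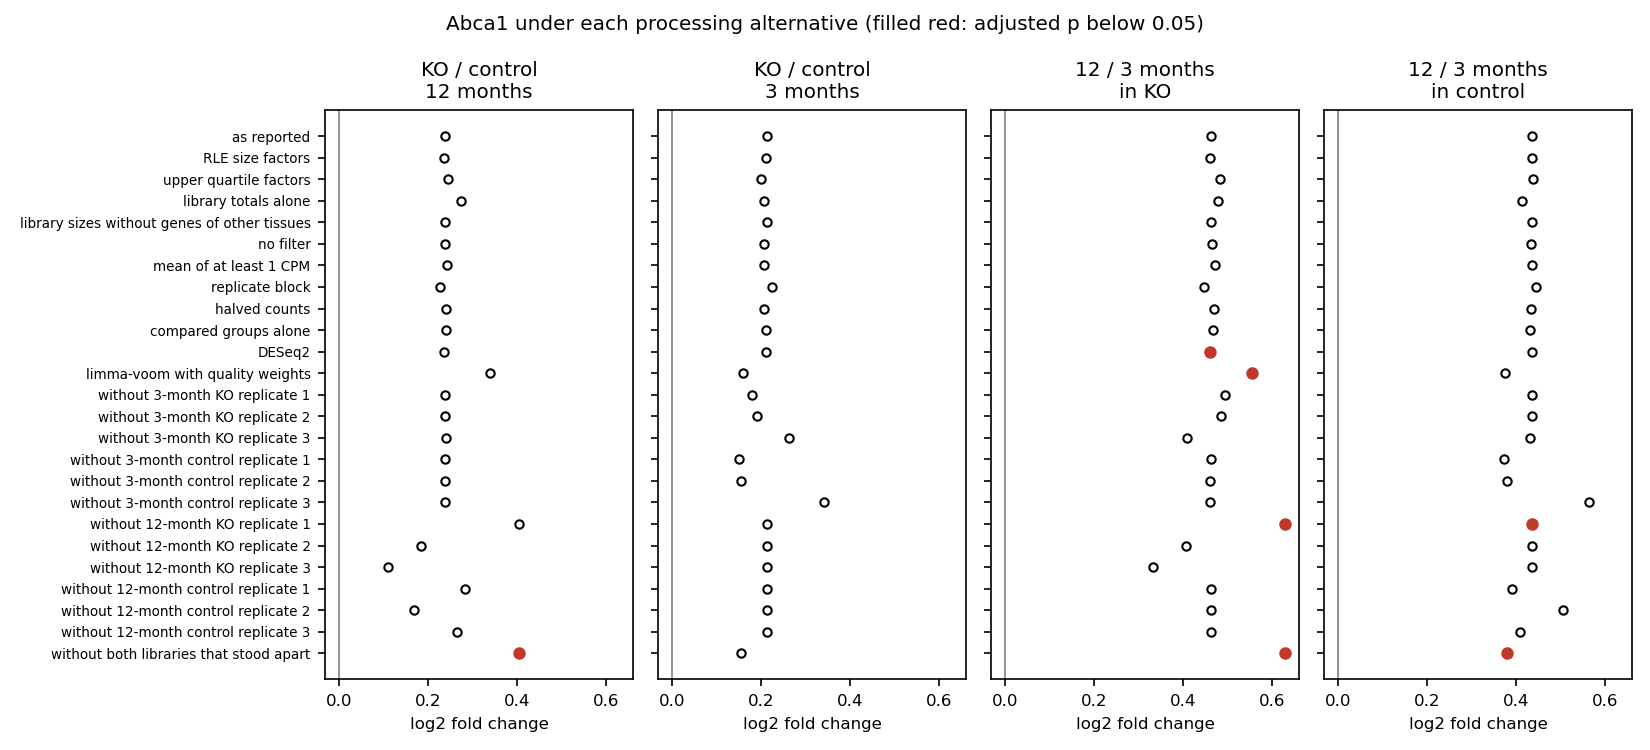
Log2 fold change of Abca1 (horizontal axes) under each processing alternative (rows of the plot) for KO over control at 12 and at 3 months and for 12 over 3 months in KO and in control retina; filled red points have an adjusted p below 0.05. Every point lies above 0, from 0.11 to 0.41 for KO at 12 months and from 0.33 to 0.63 for age in KO.

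The other members showed smaller age differences. Abca4 was higher in all 3 control libraries at 12 months than in all 3 at 3 months, with a log2 fold change of 0.19 ± 0.08 (SE, edgeR, unadjusted p = 0.0312, adjusted p = 0.323). In KO retina its age difference was 0.00083 ± 0.08. Abca4 passed in control retina under limma-voom (0.23, adjusted p = 0.005) and with both libraries that stood apart left out (0.23, adjusted p = 0.00108). Abca5 did not overlap between ages in KO retina (log2 fold change 0.20 ± 0.19, adjusted p = 0.735). Non-overlap between ages was found for 2 of 9 members in KO (Abca1 and Abca5), against 22% of all genes, and for 2 of 9 in control retina (Abca1 and Abca4), against 18%. At an unadjusted p under 0.05 there was 1 of 9 in KO (13.3% of all genes), 2 of 9 in control retina (12.5%) and 1 of 9 averaged (18.7%). The remaining members had age log2 fold changes between -0.11 and 0.08 in the separate genotypes, and each adjusted p was 0.607 or above.

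Of the mouse ABCA genes outside the 9, Abca6 and Abca13 passed the filter. Abca6 had 6.68 to 8.05 CPM in 12-month KO and 5.72 to 6.75 CPM in 12-month control retina, with a log2 fold change of 0.22 ± 0.15 (SE, edgeR, adjusted p = 0.686). Abca13 had 10.2 to 13.3 CPM in 12-month KO and 10.3 to 13.2 CPM in 12-month control retina, with a log2 fold change of -0.02 ± 0.18 (adjusted p = 0.989). At 3 months Abca13 had 8.99 to 10.2 CPM in KO and 5.46 to 10.5 CPM in control retina, with a log2 fold change of 0.26 ± 0.18 (adjusted p = 0.709). Its lowest value was in the 3-month control library that stood apart. Its log2 fold change of 12 over 3 months was 0.23 ± 0.18 in KO (adjusted p = 0.671), 0.50 ± 0.18 in control retina (unadjusted p = 0.0118, adjusted p = 0.203) and 0.36 ± 0.13 averaged (adjusted p = 0.103), and limma-voom called it averaged. At 3 months the Abca6 log2 fold change was 0.11 ± 0.15 (adjusted p = 0.837). Abca12, Abca14, Abca15, Abca16 and Abca17 had at most 12 counts in any library and were not tested.

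The wider lipid pathway gave no called gene with the knockout. Of 127 genes in 9 lists, 116 were tested, and 0 passed at 12 months, 0 at 3 months and 0 averaged over ages. Of all genes tested, 0.212%, 0.225% and 0.316% passed. At an unadjusted p under 0.05 there were 16, 9 and 14 pathway genes, against 8.7%, 7.5% and 12.9% of all genes tested. DESeq2 and limma-voom called 0, 0 and 1, the 1 being Nceh1, a cholesteryl ester hydrolase. Abcg1, which passes cholesterol on to formed lipoprotein particles, had a 12-month log2 fold change of 0.04 ± 0.07 (edgeR, adjusted p = 0.908), and its neuronal relative Abcg4 one of -0.11 ± 0.07 (adjusted p = 0.671). Apoe, the main lipid acceptor made by glia, was at 0.01 ± 0.09 at 12 months (adjusted p = 0.988) and -0.20 ± 0.09 at 3 months (adjusted p = 0.658). Clusterin (Clu), another acceptor, was at 0.04 ± 0.11 at 12 months (adjusted p = 0.934).

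By list, the 12-month medians given here ran from -0.09 to 0.09. At 12 months the 20 sterol synthesis genes and SREBP2 targets had a median log2 fold change of 0.09, with 13 of 20 above 0, against 8127 of all 16475 genes tested, and 6 at an unadjusted p under 0.05, against 8.7% of all genes. Hmgcs1, an early enzyme of that route, was at 0.24 ± 0.09 (SE, edgeR, adjusted p = 0.440). The 13 LXR targets had a median of -0.0055, and Scd2, a fatty acid desaturase among them, was at -0.09 ± 0.06 (adjusted p = 0.693). The 16 tested LXR and RXR receptors and regulators had a median of -0.05, with Srebf1 at -0.12 ± 0.09 (adjusted p = 0.722). The 17 genes of intracellular cholesterol handling had a median of -0.03, the 22 tested ABCB, ABCC and ABCD genes -0.01, and the 14 tested acceptors and lipoprotein genes 0.0013. All 15 visual cycle and disc rim partners of Abca4 were below 0 at 12 months, with a median of -0.09, among them Prph2 at -0.04 ± 0.07 (adjusted p = 0.898). At 3 months 9 of those 15 were above 0, with a median of 0.02.

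With age more of all genes tested passed, 2.37% in KO and 2.11% in control retina, and some pathway genes were among them. Of 17 genes of intracellular cholesterol handling, 3 rose at 12 months in KO and 3 in control retina, while 10 of 17 in KO and 12 of 17 in control retina had a log2 fold change above 0. Osbpl1a, Cyp27a1 and Cav1 were the 3 in each. Osbpl1a, an oxysterol-binding relative, rose by 0.45 ± 0.07 (SE) in KO and 0.60 ± 0.07 in control retina (edgeR, adjusted p = 0.0015 and 5.65e-05), and Cyp27a1, which makes the LXR ligand 27-hydroxycholesterol, by 0.55 ± 0.13 and 0.74 ± 0.13 (adjusted p = 0.0278 and 0.00291). Cav1, a caveolar protein, rose by 0.41 ± 0.09 in KO and 0.44 ± 0.09 in control retina (adjusted p = 0.0147 and 0.00908). In KO retina Dhcr7, a sterol synthesis enzyme, fell by 0.33 and Rpe65, the isomerase of the visual cycle, by 0.68 (adjusted p = 0.0429 and 0.0326). In control retina Insig1, a sterol-regulated brake on that synthesis, fell by 0.35 (adjusted p = 0.0209). Rpe65 is also one of the pigment epithelium and melanocyte markers. In KO retina these summed to 95.2 to 126 CPM at 12 months against 131 to 169 CPM at 3 months. The part of that tissue in the fall of Rpe65 was not tested. Averaged over genotypes 4 pathway genes rose and 11 fell, where 3.62% of all genes tested rose and 2.76% fell. The fallers included 6 of 20 sterol synthesis genes and SREBP2 targets, whose median was -0.17 against -0.00089 for all genes, among them Dhcr7 (-0.27), Insig1 (-0.30), Stard4 (-0.36) and Mvd (-0.35).

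The genes whose pattern over the 12 libraries lay nearest to that of Abca1, by root mean square difference of centred log2 CPM, were Pla2r1 (0.139), Dnah7b (0.147), Ccn4 (0.148) and Lima1 (0.152), besides 1 gene without a name in the tables used. The median over 14355 genes was 0.338. The nearest other member was Abca8b, at 0.265 and rank 1218, where a gene level over all 12 libraries would lie at 0.301.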

How the data were processed

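Retinal RNA from 12 mouse samples was sequenced as stranded poly(A) libraries, per the labels' protocols. The submitters' processing notes name HISAT2 2.1.0, featureCounts 1.6.4, DESeq2 1.22.1 and GRCm38. Each deposited file holds unnormalized counts, 1 per Entrez gene. The sources used here state no strand setting, no rule for multi-mapping reads and no filter. Of the counts from 1 to 20, 60.7% to 70.2% were even, which may mean that both mates of a read pair were counted. The authors also deposited a table for 12 months whose columns carry no names; they were read as mean normalized count (taken as a signal deposited by the authors), log2 fold change, standard error, score, p-value and adjusted p-value, and the log2 values deposited by the authors appear shrunken.

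CPM was scaled by library totals. Genes were filtered with filterByExpr, scaled by TMM and tested with edgeR 4.0.16 (robust quasi-likelihood, 1 coefficient per group, all 12 libraries, Benjamini-Hochberg over 16475 genes, threshold 0.05) in R 4.3.3. Intervals are 95% from the standard error. Exact permutation tests used log2(CPM + 0.1). limma 3.58.1 and DESeq2 1.42.0 served as alternatives. All 9 members are named; from each pathway list, genes below the threshold, at most 4 by smallest adjusted p, or else the 2 with the highest mean CPM; the fallers named for sterol synthesis in the averaged age contrast were added after seeing the values. Some genes that this rule names are not reported here. The members and lists were chosen with earlier results of these data known. Promoters are from RefSeq, at the start listed first for each gene, and lengths are from GENCODE.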

Additional observations from a re-analysis of the deposited data

How the results depend on the processing

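The number of members called stayed at 0 for KO against control at 3 months and for the difference of KO effects under every alternative run, and for KO against control at 12 months and averaged over ages under all but 1. That 1, with both libraries that stood apart left out (chosen after seeing the data), called 1 member in each, Abca1. For age in KO retina 1 member, Abca1, was called under DESeq2, under limma-voom, without 12-month KO replicate 1 and without both libraries (log2 fold change 0.63, adjusted p = 4.22e-05). For age in control retina 1 was called under limma-voom (Abca4) and without 12-month KO replicate 1 (Abca1), and 2 without both libraries, Abca1 (0.38, adjusted p = 0.0161) and Abca4. For age averaged over genotypes 1 was called as reported, 2 (Abca1 and Abca4) under limma-voom and without 12-month KO replicate 1, and 3 without both libraries, with Abca4 at 0.17 and Abca8a at -0.12. Leaving out each library in turn, the members called ran from 0 to 0 for the 3 KO comparisons and the difference, from 0 to 1 for age in KO and for age in control, and from 1 to 2 for age averaged. A threshold of 0.1 called the same number of members as 0.05 in each comparison. The cause of these changes was not tested.

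No pairing by the replicate numbers of the titles was seen in the groups compared. Same-numbered libraries correlated between -0.082 and 0.044 in their deviations from group means, and differently numbered ones between -0.070 and 0.089. With 3 libraries a group, such correlations cannot exclude a pairing. With the number as a replicate block, 0 members were called in each comparison planned, and the genes called of all tested were 40 at 12 months, 38 at 3 months, 56 averaged, 368 for age in KO and 317 for age in control, against 35, 37, 52, 390 and 347 without it.

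Counts over all genes moved more than the members did. KO against control at 12 months gave 35 calls, and 13 to 166 with 1 library left out (13 without control replicate 2, 166 without 3-month control replicate 2), 131 under DESeq2, 186 under limma-voom, 66 at a threshold of 0.1 and 421 without both libraries. At 3 months 37 became 64 under DESeq2, 79 under limma-voom, 21 without KO replicate 3 and 58 without both libraries; averaged over ages 52 became 177, 211, 34 without 3-month KO replicate 1 and 220. For age in KO 390 became 598, 1319, 187 without 3-month KO replicate 3 and 1069, and for age in control 347 became 579, 773, 201 without 12-month control replicate 2 and 1040, or 198 with the compared groups alone. The difference of KO effects gave 21, against 44, 50 and 50.

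Small log2 fold changes of members that were not called changed sign. RLE factors gave Abca4 -0.00041 for age in KO. Upper quartile factors gave Abca9 0.0024 for the difference of KO effects. Library totals alone gave Abca4 0.0027 for KO averaged, and Abca3 0.014, Abca8a 0.019 and Abca9 0.021 for the difference. The replicate block gave Abca4 -0.0053 for age in KO and Abca3 0.0067 for age in control, and DESeq2 gave Abca4 -0.00074 for age in KO. Under limma-voom, Abca9 was 0.14 for KO at 12 months; Abca3 0.0016, Abca5 -0.11, Abca8a -0.0083 and Abca9 0.0029 for KO at 3 months; and Abca4 0.041 and Abca9 0.070 for KO averaged. It also gave Abca2 0.017 and Abca3 0.040 for age in KO, Abca2 0.012, Abca3 0.077, Abca5 -0.041, Abca7 0.017 and Abca8b -0.017 for age in control, Abca8a 0.025 and Abca9 0.13 for the difference, and Abca2 0.015 and Abca3 0.058 for age averaged. Without both libraries, Abca9 was 0.17 for KO at 12 months; Abca3 0.031, Abca5 -0.16, Abca8a -0.021 and Abca9 0.018 for KO at 3 months; and Abca3 0.012, Abca4 0.059 and Abca9 0.093 for KO averaged. It also gave Abca2 0.036, Abca3 0.070 and Abca8b 0.0024 for age in KO, Abca2 0.036, Abca3 0.11, Abca5 -0.089, Abca7 0.026 and Abca8b -0.024 for age in control, Abca2 -6.1e-05, Abca8a 0.060, Abca8b 0.027 and Abca9 0.15 for the difference, and Abca2 0.036 and Abca3 0.088 for age averaged.

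With 1 library left out at a time, these members crossed 0. For KO at 12 months Abca8a ran from -0.019 to 0.10, Abca8b from -0.050 to 0.15 and Abca9 from -0.24 to 0.18. For KO at 3 months Abca3 ran from -0.14 to 0.031, Abca5 from -0.16 to 0.21, Abca8a from -0.021 to 0.10 and Abca9 from -0.12 to 0.065. For KO averaged Abca4 ran from -0.044 to 0.036, Abca5 from -0.017 to 0.17 and Abca9 from -0.14 to 0.077. For age in KO Abca2 ran from -0.14 to 0.036, Abca3 from -0.095 to 0.070, Abca4 from -0.060 to 0.10, Abca8b from -0.20 to 0.0024 and Abca9 from -0.13 to 0.28. For age in control Abca2 ran from -0.14 to 0.036, Abca3 from -0.064 to 0.11, Abca5 from -0.089 to 0.28, Abca7 from -0.11 to 0.026, Abca8b from -0.024 to 0.13 and Abca9 from -0.14 to 0.25. For the difference Abca1 ran from -0.10 to 0.19, Abca2 from -0.099 to 0.12, Abca3 from -0.13 to 0.070, Abca5 from -0.078 to 0.29, Abca7 from -0.14 to 0.0055, Abca8a from -0.076 to 0.054 and Abca9 from -0.21 to 0.21. For age averaged Abca3 ran from -0.047 to 0.041, Abca8b from -0.075 to 0.026 and Abca9 from -0.040 to 0.18. Abca1, Abca2 and Abca7 kept their sign for KO against control, at each age and averaged, in every alternative run.

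With TMM-scaled libraries none of 36 group means of the members moved by 1 SD or more. With 3 libraries a group, each interval is set by the spread between libraries, and for Abca9 by its low counts.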
